A study of Rattus norvegicus with 4 samples.

Results

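The genes described here act in mitosis and on the spindle, and they were followed in NR8383, an established line of rat alveolar macrophages that was obtained by lung lavage. A list of 45 genes was chosen by name, by a rule that uses no measured value but with earlier results of these data known, and each was looked for on an array by its transcript accession. Of these, 41 were matched, by 61 probes, among 16506 named genes on the array. Cdc25c, Cenpe, Anln and Top2a were matched to no probe and their levels were not analysed here. The study measured total RNA on 4 one-colour Agilent arrays, 1 for each of 4 biological replicates of 1 group, so it holds no comparison between treatments. All of the cells were of this line after 20 passages. Growth medium held 15% fetal bovine serum, cells were plated 48 h ahead in 25 cm2 flasks, and the 4 h incubation itself was in DMEM with 10% serum. They carried no other treatment named in the labels. The labels add the letters ALI, which they do not spell out. The study is of 1 line in 1 condition, with no group of resting cells to set beside it.

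Mitosis divides the copied chromosomes between 2 daughter cells. The kinase Cdk1, bound to a cyclin, starts it; further kinases and motor proteins build the spindle of microtubules; kinetochores tie chromosomes to it; and a checkpoint delays anaphase until all are attached. Most of these genes are transcribed late in the cell cycle, in G2 phase and mitosis, and are kept off in resting cells, which is why their transcripts serve as signs of dividing cells. Their repression in early phases is known to act through the MuvB core of the DREAM complex at a promoter element called the cell cycle genes homology region (CHR), and their activation through the factor NF-Y at CCAAT boxes and through the factors B-Myb and FoxM1. Alveolar macrophages in the body divide slowly, whereas this line grows in culture.

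The promoters were searched for both elements. RefSeq promoters of the GRCr8 assembly, 250 bases before to 50 bases after a gene's start, were found for 38 of the 45 listed genes, and the first start given for a gene was used. The 6 promoters below are those of the first 6 detected genes, in order of role, that hold a CHR match. They run 5′ to 3′ on the gene's own strand. Capitals mark the CHR letters TTTGAA and the variant TTCGAA, the CCAAT box, and either of them read from the other strand (TTCAAA and ATTGG). Cdk1, the kinase that starts mitosis, lies on chr20:19265043-19265342, plus strand. Ccnb2, a B-type cyclin that binds it, lies on chr8:79981609-79981908, minus strand. Cks2, a small subunit of the cyclin-dependent kinase complex, lies on chr17:13727470-13727769, minus strand. Cdc25b, a phosphatase that activates Cdk1, lies on chr3:138859923-138860222, plus strand. The mitotic kinase Plk1 lies on chr1:186147408-186147707, plus strand. Nusap1, a spindle microtubule-binding protein, lies on chr3:127057045-127057344, plus strand.
Cdk1: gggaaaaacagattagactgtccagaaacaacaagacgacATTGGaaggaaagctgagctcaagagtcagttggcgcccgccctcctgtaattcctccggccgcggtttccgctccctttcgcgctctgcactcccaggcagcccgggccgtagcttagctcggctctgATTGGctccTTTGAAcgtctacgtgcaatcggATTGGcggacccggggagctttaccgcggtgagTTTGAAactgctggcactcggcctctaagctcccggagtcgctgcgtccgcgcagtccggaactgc
Ccnb2: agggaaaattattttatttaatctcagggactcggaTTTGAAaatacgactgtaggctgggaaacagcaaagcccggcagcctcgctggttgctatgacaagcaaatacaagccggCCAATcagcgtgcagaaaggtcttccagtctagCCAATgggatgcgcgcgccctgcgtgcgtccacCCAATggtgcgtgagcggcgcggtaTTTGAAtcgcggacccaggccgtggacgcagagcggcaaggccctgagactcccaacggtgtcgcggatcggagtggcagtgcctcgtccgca
Cks2: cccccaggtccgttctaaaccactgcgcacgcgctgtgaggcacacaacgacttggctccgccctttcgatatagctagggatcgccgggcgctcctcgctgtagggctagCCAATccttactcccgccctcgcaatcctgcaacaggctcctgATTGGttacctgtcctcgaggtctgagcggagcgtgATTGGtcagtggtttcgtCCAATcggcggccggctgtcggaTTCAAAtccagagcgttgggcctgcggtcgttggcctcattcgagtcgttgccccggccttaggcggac
Cdc25b: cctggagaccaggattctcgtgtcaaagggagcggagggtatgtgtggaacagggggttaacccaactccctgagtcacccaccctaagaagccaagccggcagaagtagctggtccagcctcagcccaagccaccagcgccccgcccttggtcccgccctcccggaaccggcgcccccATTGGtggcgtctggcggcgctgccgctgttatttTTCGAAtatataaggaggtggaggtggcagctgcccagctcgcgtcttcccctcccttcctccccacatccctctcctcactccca
Plk1: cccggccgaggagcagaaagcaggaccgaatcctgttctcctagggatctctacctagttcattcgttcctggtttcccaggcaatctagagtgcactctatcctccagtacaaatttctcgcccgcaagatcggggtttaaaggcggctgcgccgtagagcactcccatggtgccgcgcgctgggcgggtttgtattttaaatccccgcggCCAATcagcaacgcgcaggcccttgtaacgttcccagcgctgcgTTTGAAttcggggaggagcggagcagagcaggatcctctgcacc
Nusap1: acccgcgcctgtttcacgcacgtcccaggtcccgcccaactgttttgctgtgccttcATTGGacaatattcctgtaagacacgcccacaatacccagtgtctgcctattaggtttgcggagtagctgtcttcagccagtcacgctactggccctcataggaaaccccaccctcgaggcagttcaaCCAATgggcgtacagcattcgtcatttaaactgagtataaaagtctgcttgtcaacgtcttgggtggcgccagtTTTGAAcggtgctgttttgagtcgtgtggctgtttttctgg

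A CHR match of either form, on either strand, was present in 28 of the 38 promoters (73.7%), against 19.5% of all 27457 promoters of the same length and 18.5% of those of protein-coding genes. The form TTTGAA accounted for 26 of the 38 (68.4%, against 18.1% of all promoters) and TTCGAA for 4 (10.5%, against 1.77%), with Bub1b and Top2a holding both. A CCAAT box was present in 30 of 38 (78.9%, against 37.7%). At least 2 of them were present in 22 of 38 (57.9%, against 11.5%), and both a CHR match and a CCAAT box in 23 of 38 (60.5%, against 7.83%). The letters of a CHR match and a CCAAT box overlapped in Mki67 and Cdca8 among these promoters, and in 21 of all 27457. Neighbouring CCAAT boxes lay 32 bases apart in Ccnb1 and in 1 pair of Cdk1, and 33 bases apart in both pairs of Ccnb2. With a window of 25 to 40 bases, chosen after the spacings were seen, 14 of the 22 members with at least 2 boxes held such a pair (63.6%), against 27.6% of the 3145 such promoters in the table. No CHR or CCAAT match was found in the windows of Aurka, Kif2c and Bub1. These are matches of letters, not measured binding, and no match says only that the letters are not in this window.

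**Figure D1:**
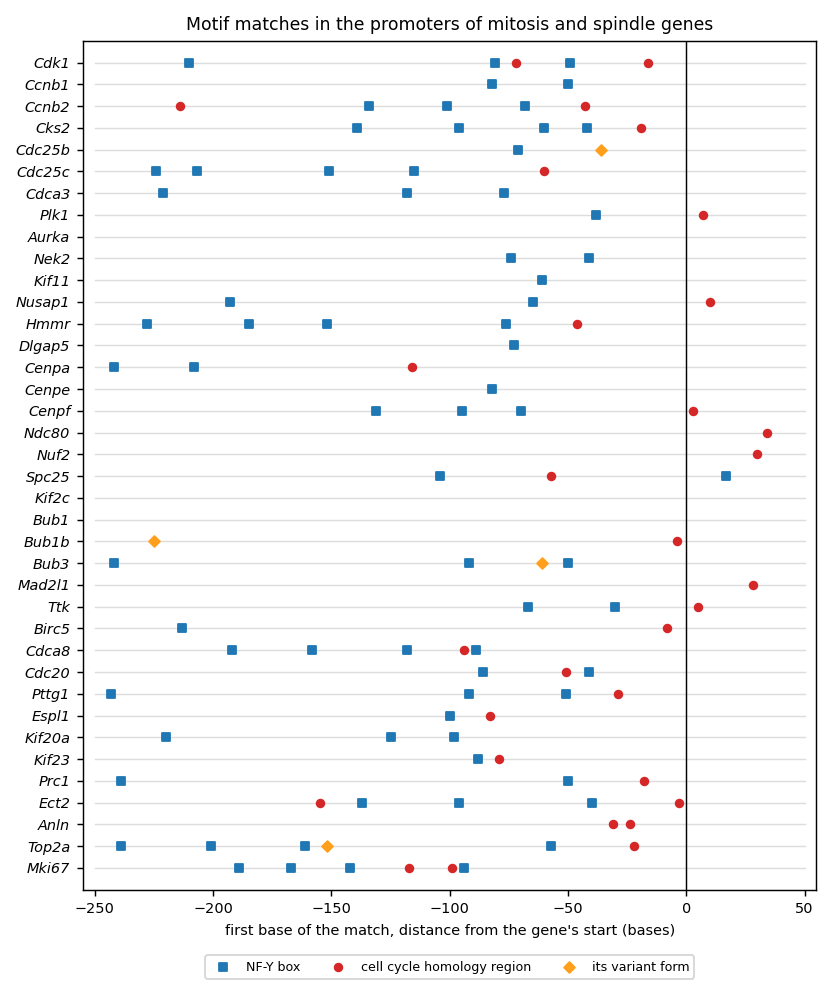
Matches of the CHR and the CCAAT (NF-Y) box in the promoters of 38 mitosis and spindle genes; the x axis is the distance of a match's first base from the gene's start in bases, each row is a gene, and each point is a match. CCAAT boxes (squares) sit upstream of the start in all but Spc25, where 1 lies at 17, and a CHR match often lies nearer the start, as in Cdk1 (-16), Ccnb2 (-43) and Plk1 (7).

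In Ccnb2 the boxes began at -134, -101 and -68 and a CHR match at -43, with a further CHR match at -214. In Cdk1 the CHR matches began at -72 and -16 and the boxes at -210, -81 and -49. Plk1 held 1 box at -38 and a CHR match 7 bases into the transcribed part. Cyclin B1 (Ccnb1) and the kinesin Kif20a held 2 and 3 boxes and no CHR match. Of the 25 DNA replication genes with a promoter in the table, genes that act in the earlier S phase, 4 held a CHR match (16.0%) and 18 a CCAAT box (72.0%). Of 71 promoters of further mitotic genes, 37 held a CHR match (52.1%) and 42 a CCAAT box (59.2%). Of 25 promoters of the anaphase-promoting complex, cohesin and condensin, a subset of these, 8 held a CHR match (32.0%) and 16 a CCAAT box (64.0%).

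Signal strength differed between arrays. The 75th percentile of probe signal was between 83.4 on replicate 1 and 167 on replicate 4, and between 50.7% and 58.2% of spots were well above background, with replicate 1 lowest on both. A level below is the log2 signal minus the array's own 75th percentile, and error is the SD over 4 replicates. Probes differ in how brightly they bind, so levels of different genes are not set against each other. Of 88 detected spots of replicate 4 more than 2 log2 units below the other arrays, 87 lay in a dim patch, rows 166 to 216 and columns 73 to 88. The patch was drawn around such spots, and the other arrays were not searched. A probe of Prc1 there read 3.27, 2.65, 1.30 and -0.37 over replicates 1 to 4, against 2.01, 1.60, 1.46 and 1.56 outside it. That of Ccnb2, with 1 of 2 spots there, read 4.39, 3.07, 3.07 and 2.67. Whether replicates 2 and 3 were dimmed there as well was not tested. Together with a margin the patch touched probes of 796 named genes (4.82%) and of 5 members: Ccnb2, Ndc80, Bub3, Cdca8 and Prc1. As a check of the label, 12 of 12 macrophage markers were detected, among them Cd68, Csf1r and Spi1, against 53.1% of all named genes. Of 12 markers of other cell types 2 were, Pecam1 and Cdh5, both listed for endothelium. Another 7, among them Epcam, Cd3e and Elane, carried the well-above-background flag on none of the arrays. Krt5 and Sftpc carried it on 2 arrays and Col1a1 on 1. Limma's test against negative controls, described below, called 5 of the 12 markers of other cell types, against 69.8% of all named genes. Pecam1 read 1.19 on replicate 1 against -0.50, -0.05 and 0.12, while Cdh5 read -0.88 against -1.07, -0.76 and -0.78. The number of arrays limits the precision.

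Nearly the whole mitotic set was expressed. A gene was called detected when, on every array, most spots of at least 1 of its probes carried the scanner software's well-above-background flag. That held for 39 of the 41 members (95.1%), against 53.1% of all 16506 named genes. Limma's moderated test of signal against the 95th percentile of negative control spots, one-sided and adjusted over all 45280 probes by Benjamini-Hochberg, called 41 of 41, against 69.8% of all named genes, with a largest adjusted p of 0.00601. All 41 also passed the looser positive-and-significant flag on every array, against 66.9% of named genes. The members that were not detected were Hmmr, a spindle-binding hyaluronan receptor, and Cenpf, a large kinetochore protein. The single probe of Hmmr was well above background on no array, as was that of 34.4% of named genes, with signals of 12.7, 3.77, 7.42 and 12.5 on replicates 1 to 4. It passed the limma test by 1.31 log2 units over the negative controls. Cenpf was well above background on replicates 2 to 4, with signals of 23.6, 33.2 and 59.5, and not on replicate 1, with 12.3.

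The replicates did not hold the mitotic genes at 1 level. Replicate 1 read highest for 31 of the 39 detected members (79.5%), against 42.3% of all 8772 detected genes. It lay above the mean of the other arrays for 35 of 39 (89.7%), against 55.8%. The median difference of replicate 1 from that mean was 0.65 for the members and 0.07 for all detected genes. A gene had to carry the flag on replicate 1 as well to be counted. Of the members left out, Cenpf had a difference of -0.87 and Hmmr 1.53. With no filter on dim probes 36 of 41 members lay above that mean, against 61.7% of named genes. The median differences were then 0.59 and 0.17. Replicate 2 read lowest for 23 of 39 (59.0%), against 23.4% of detected genes, and it read highest for none (21.9% of detected genes). Replicate 3 read highest for 3 members (19.9% of detected genes) and replicate 4 for 5 (15.8%). The median differences were -0.33 on replicate 2, -0.18 on replicate 3 and -0.13 on replicate 4, each taken against a mean that holds replicate 1. Before scaling, 8 of 39 members (20.5%) had their highest signal on replicate 1, the array with the weakest overall signal, against 4.45% of detected genes. Among them were Ndc80, Cdca8, Prc1 and Ccnb2, which have probes in the dim patch. Outside it, the detected probes of Prc1 and Ndc80 were highest on replicate 4, at 493 and 41.8, against 335 and 27.7 on replicate 1. The probe of Ccnb2 outside it stayed highest on replicate 1, and Cdca8 has no other probe. By Dixon's criterion for 1 value apart from the rest, 7 of the 39 members had 1 replicate apart, against 8.41% of detected genes. In all 7 it was replicate 1 on the high side. That held for 276 of the 738 detected genes with 1 replicate apart, or 3.15% of all detected genes. In a culture, a larger share of cycling cells and more transcript per cycling cell cannot be told apart.

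**Figure D2:**
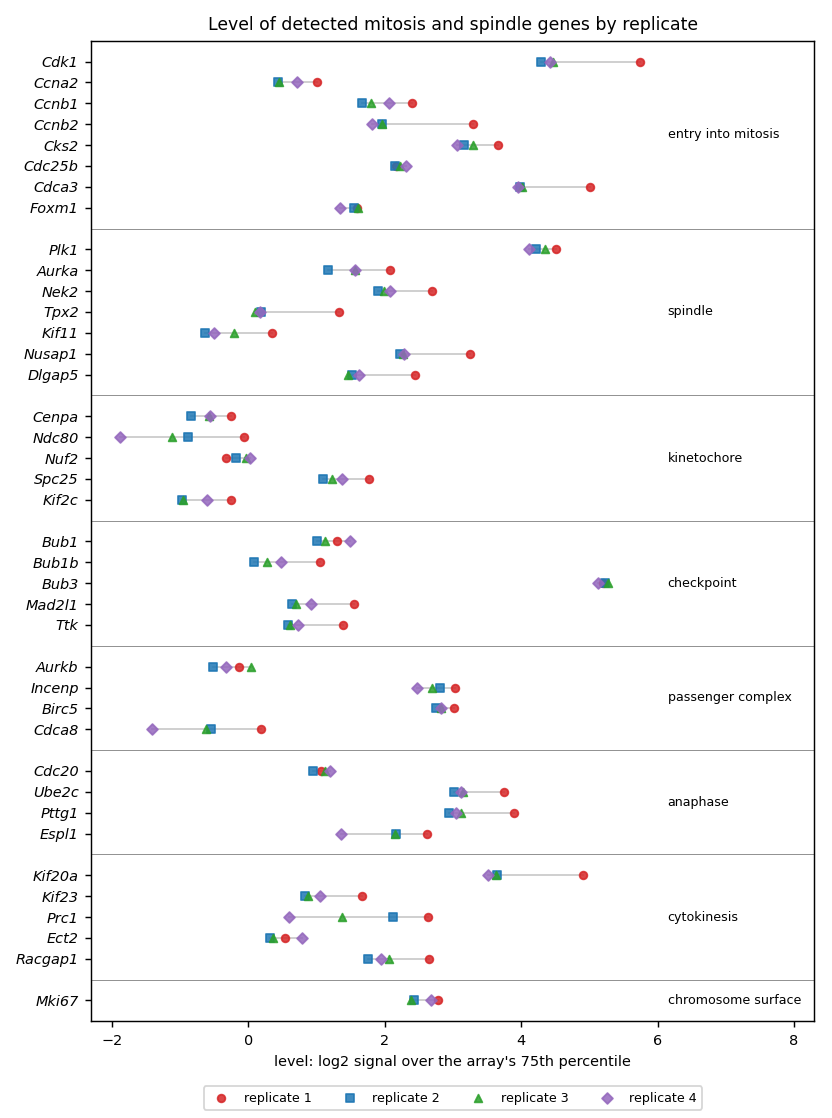
Level (x axis, log2 signal over the array's 75th percentile) of each of 39 detected genes on the 4 replicates, with a grey line over the gene's range and genes grouped by role; positions of different genes are not comparable. Red circles (replicate 1) lie at the right end for 31 genes, while the other 3 replicates sit close together for genes such as Cdk1, Cdca3 and Kif20a.

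The height of replicate 1 was smaller under normexp. That setting changed the signal used and the background correction and added an offset of 50, and their parts were not told apart. With normexp on the median signals in place of the scanner's processed signal the median difference was 0.34 for the members and 0.03 for all detected genes, and Plk1, Bub1, Birc5 and Ect2 then lay below the other arrays. It was 0.61 under quantile normalization and 0.56 when the percentile was taken over detected probes. It was 0.575 without the spots of the dim patch, which were left out on every array. A total of 31 of 39 members lay above the other arrays in the main setting and in each of 7 alternatives of scaling, background, patch or a left-out replicate, where Cdca8 has no value without the patch. The same held for 38.9% of all detected genes. The part of the lower array signal and detected share of replicate 1 in this difference was not tested. Without replicate 1 the median SD of the members dropped from 0.36 to 0.14, while that of all detected genes went from 0.24 to 0.15. Some members stayed widely spread without it. The SD went from 0.89 to 0.76 for Prc1, 0.75 to 0.52 for Ndc80, 0.657 to 0.485 for Cdca8 and 0.52 to 0.46 for Espl1. Among replicates 2 to 4 alone, the median differences were -0.12, 0.04 and 0.04.

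**Figure D3:**
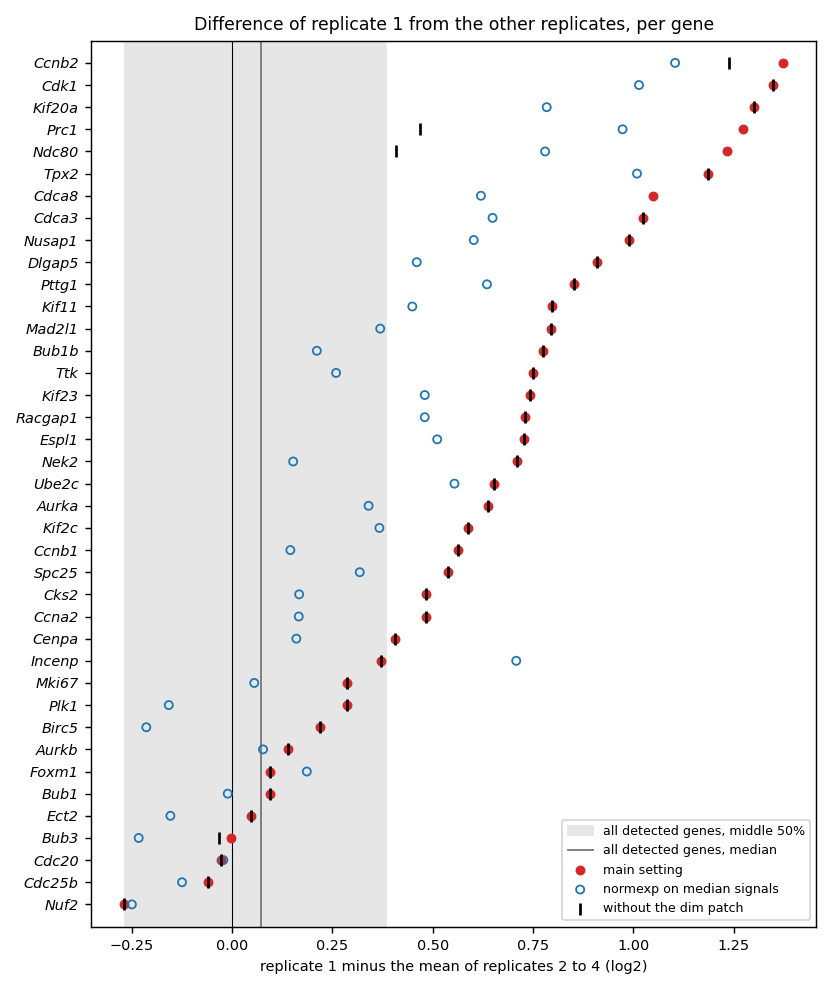
Difference of replicate 1 from the mean of replicates 2 to 4 (x axis, log2) for each of 39 detected genes (rows), in the main setting, under normexp and without the dim patch, with the median and middle 50% of all detected genes in grey. Ccnb2 (1.37), Cdk1 (1.35) and Kif20a (1.30) lie farthest to the right and Nuf2 (-0.27) to the left; Prc1 and Ndc80 move to 0.47 and 0.41 without the patch.

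Genes that start mitosis held both the largest and some of the smallest differences. Cdk1, on a probe printed 10 times per array, read 5.74 on replicate 1 against 4.29, 4.46 and 4.42 on replicates 2 to 4, a mean of 4.73 ± 0.68 (SD, n = 4). Replicate 1 stood apart and the other arrays lay close together. Its difference from their mean was 1.35, or 2.55-fold, while the SD between the 10 spots of an array was at most 0.10. Ccnb2 read 3.29 on replicate 1 and 1.96, 1.96 and 1.82 on replicates 2 to 4, with 1.30 of difference on the probe outside the dim patch. Cdca3, an adaptor that promotes mitotic entry, read 5.01 against 3.99, 4.01 and 3.96. Cyclin B1 (Ccnb1) separated less: it read 2.41 on replicate 1 and 1.67, 1.81 and 2.06 on the others, for a mean of 1.99 ± 0.33. Cyclin A2 (Ccna2), which acts in S and G2 phase, read 1.01, 0.43, 0.45 and 0.72 over replicates 1 to 4, and Cks2 read 3.66, 3.17, 3.30 and 3.07. Replicate 1 was the highest for each of these, with differences of 0.56, 0.48 and 0.48. Cdc25b read 2.17, 2.15, 2.23 and 2.31, so replicate 1 lay inside the range of the others, with an SD of 0.07. Foxm1, the transcription factor that activates many of these genes, read 1.60, 1.55, 1.61 and 1.34, and replicate 1 again did not stand apart.

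All 7 detected spindle genes read highest on replicate 1, as did 42.3% of all detected genes. Tpx2, which activates Aurora A and seeds microtubules, read 1.34 there against 0.10 to 0.18 elsewhere. Nusap1 read 3.25 against 2.22 to 2.28, and Dlgap5, which stabilises the microtubule fibres of kinetochores, 2.44 against 1.46 to 1.62. In these 3 genes the other arrays lay close together and replicate 1 did not overlap them. The spindle pole kinase Aurka read 2.07, 1.18, 1.56 and 1.57 over replicates 1 to 4, and both of its probes were highest on replicate 1, by 0.60 and 0.67. The centrosomal kinase Nek2 read 2.70, 1.90, 1.99 and 2.08, on 1 of 2 probes. Kif11, the motor that pushes spindle poles apart, read 0.35 against -0.63 to -0.20. Plk1 was nearly level: on a probe printed 10 times it read 4.52, 4.23, 4.36 and 4.12, a mean of 4.30 ± 0.17, and its difference of 0.29 turned to -0.16 under normexp.

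Kinetochore genes were less uniform. Spc25, of the Ndc80 complex that grips microtubules, read 1.77 on replicate 1 and at most 1.37 on the others. Its partner Nuf2 went the other way, with -0.33 on replicate 1 and -0.19, -0.03 and 0.03 on the others, and is 1 of 4 detected members below the mean of the other arrays there. Ndc80 itself spread widely, with -0.06, -0.89, -1.12 and -1.88, but its brightest probe lay in the dim patch and read 1.47, 0.49, -0.52 and -1.75. The 1 detected probe outside the patch read -1.59, -2.27, -1.72 and -2.00, a difference on replicate 1 of 0.41 instead of 1.23. The centromeric histone Cenpa read -0.25 against -0.83, -0.57 and -0.57, with differences of 0.72 and 0.10 on its 2 probes. Kif2c, a kinesin that takes microtubules apart at centromeres, read -0.26 against -0.97 to -0.60.

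The checkpoint genes split into those high on replicate 1 and those not. Bub1b, which holds back anaphase, read 1.06 against 0.08, 0.27 and 0.49. Mad2l1, its partner in the inhibitory complex, read 1.55 against 0.64, 0.71 and 0.92, and Ttk, the kinase at the head of the pathway, 1.39 against 0.58, 0.61 and 0.73. For all 3, replicate 1 lay above every other array. Bub1 read 1.30 on replicate 1 and 1.01, 1.13 and 1.49 on the others, so that replicate 4 was the highest. Bub3, a partner of both Bub1 and Bub1b that also has roles outside mitosis, had the smallest SD of the members in the main setting, at 5.21, 5.23, 5.27 and 5.13, a mean of 5.21 ± 0.06. Each value is the mean of up to 10 spots, of which 1 lay in the patch.

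The chromosomal passenger complex, which corrects faulty attachments, had a median difference of 0.29, the lowest of the groups with over 1 gene in the main setting but not under normexp, where it was 0.35 against 0.18 for the entry genes. Its kinase Aurkb read -0.13 on replicate 1 and -0.52, 0.03 and -0.33 on the others, and replicate 3 was the highest. Birc5 (survivin) read 3.01 against 2.75, 2.82 and 2.82, and the scaffold Incenp 3.03 against 2.81, 2.69 and 2.47. Birc5 turned to -0.21 under normexp while Incenp went from 0.37 to 0.71. Cdca8 (borealin) read 0.19, -0.54, -0.61 and -1.42, but its only probe lay in the dim patch and no value without it exists.

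Anaphase is set off by the anaphase-promoting complex. Of 4 genes that work with it or downstream of it, 3 read highest on replicate 1, against 42.3% of all detected genes. Cdc20, its activator, read 1.06 on replicate 1 and 0.95, 1.13 and 1.20 on the others, so replicate 1 lay inside their range. Ube2c, the ubiquitin-conjugating enzyme of the complex, read 3.75 against 3.02, 3.14 and 3.12, and its 2 probes differed by 0.67 and 0.64. Securin (Pttg1), which the complex destroys, read 3.89 against 2.95, 3.12 and 3.05 on a probe printed 10 times, whose SD between spots was at most 0.11. Separase (Espl1), which securin inhibits, read 2.62 on replicate 1, 2.17 and 2.15 on replicates 2 and 3 and 1.37 on replicate 4, so that replicate 4 stood low as well as replicate 1 high.

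Of 5 genes of cytokinesis, the splitting of the cell, 4 read highest on replicate 1, against 42.3% of all detected genes. The kinesin Kif20a read 4.90 on replicate 1 and 3.65, 3.64 and 3.52 on the others. The motor Kif23 read 1.66 against 0.84, 0.87 and 1.05, and Racgap1, which forms the centralspindlin complex with Kif23, 2.65 against 1.75, 2.07 and 1.95. All 3 probes of Racgap1 were highest on replicate 1, by 0.70 to 0.75. Prc1, which bundles microtubules between the poles, had the widest spread of any detected member, 1.68 ± 0.89. Its probe in the dim patch read 3.27, 2.65, 1.30 and -0.37 and its other probe 2.01, 1.60, 1.46 and 1.56, with a difference of 0.47 there. Ect2, which activates the contractile ring, read 0.54 on replicate 1 and 0.31, 0.36 and 0.79 on the others, and replicate 1 did not stand apart. The chromosome surface protein Mki67, the antigen used to count dividing cells, read 2.78, 2.43, 2.38 and 2.68, a mean of 2.57 ± 0.19. Its probe printed 10 times read 3.38 against 3.28 to 3.49, and its 3 other probes gave differences of 0.58, 0.29 and 0.25.

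Of the 41 members 15 had several probes. In 5 of them a further probe was not detected on all arrays, as for Espl1, where 1 probe was well above background on all arrays and the other on none, with signals of 4.05, 2.59, 5.65 and 4.16. Mad2l1, Bub1b, Nek2 and Ndc80 each had 1 such probe, well above background on 2, 3, 1 and 3 arrays. When the first probe in the file stood for each gene, 37 members were detected. Foxm1 had detected probes of opposite sign in the difference on replicate 1, 0.30 on 1 and -0.11 on the other. In Ndc80 and Mad2l1 the probe not detected on all arrays gave -0.43 and -0.05, opposite in sign to their other probes. That of Ndc80 lay in the dim patch but read highest on replicate 4, at -1.75 against -2.595 to -2.36.

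**Figure D4:**
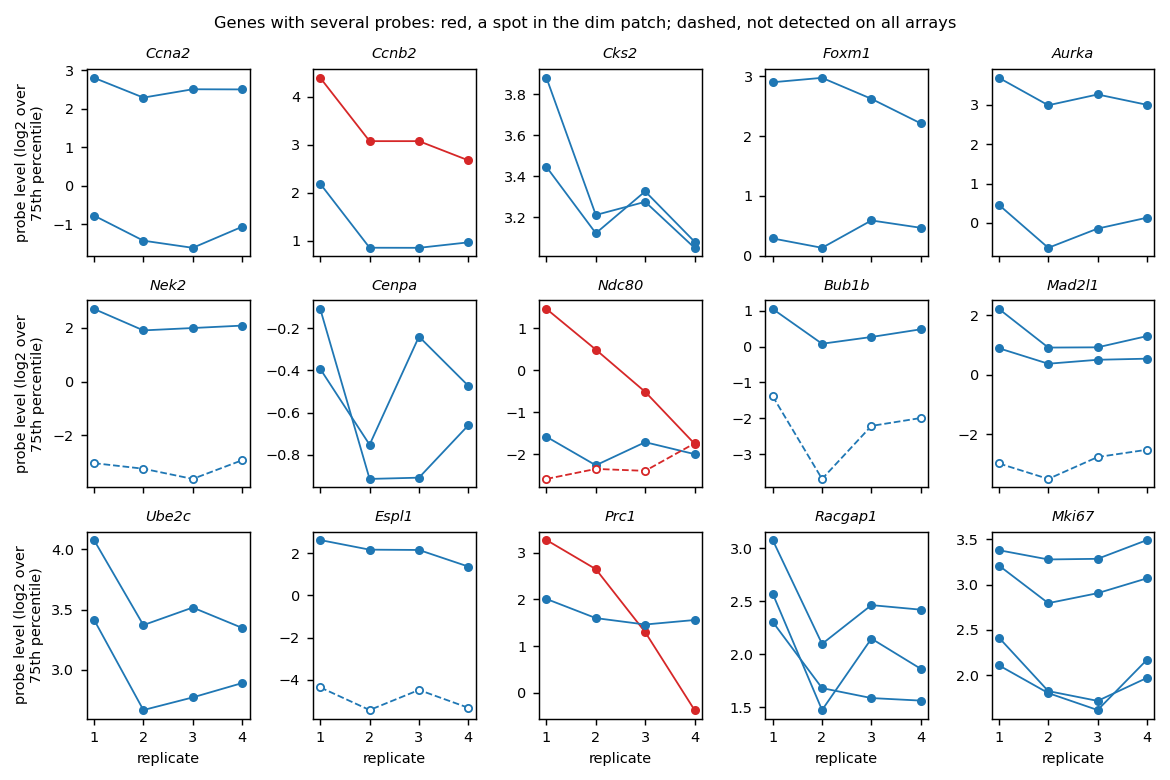
Probe levels (y axis, log2 signal over the array's 75th percentile) on the 4 replicates (x axis, in no order) for the 15 genes with several probes; each line joins the values of 1 probe, red where a spot lay in the dim patch, and dashed with open points where it was not detected on all arrays. The red probes of Prc1 and Ndc80 end at -0.37 and -1.75 on replicate 4, the only array searched for the patch. The blue probes of these genes outside the patch read 1.56 and -2.00 there.

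Genes that share these pathways were looked at next, from lists chosen by function. Of 16 further spindle genes on the array 15 were detected, and the median difference was 0.65 (0.44 under normexp). The kinesin Kif15 read 0.28 against -1.49 to -1.16, Kif18a -1.34 against -1.84 to -1.25 and Kif18b 3.19 against 2.63 to 2.78. Psrc1 was the exception, well above background on no array. Further kinetochore genes had 15 of 19 detected and a median of 0.35, with Cenpm at 3.79 against 3.22 to 3.48, Cenpn at 1.28 against 1.05 to 1.45 and Cenpo at -1.52 against -1.89 to -1.74. Of 3 that carried the well-above-background flag on no array, Cenpk also missed limma's test against negative controls and Ska3 passed it.

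Median differences were near 0 for some of the machinery. All 14 genes of the anaphase-promoting complex and its direct regulators were detected, and their median difference on replicate 1 was -0.04, which turned to 0.02 without replicate 3. Its subunits Anapc1, Anapc2 and Anapc4 read 0.45, 4.06 and 3.25 there, each inside the range of the other arrays. All 11 cohesin and condensin genes were detected, with a median of -0.16; of the cohesin and condensin subunits, Smc1a was higher on replicate 1 (2.66 against 2.17 to 2.35), Smc2 inside the range (0.54 against 0.43 to 0.97) and Smc3 lower (1.07 against 1.40 to 1.54). Of 10 regulators of entry 8 were detected, with a median of 0.08 that turned to -0.01 under normexp and with the percentile over detected probes. The kinase Wee1, which holds Cdk1 inactive, read 0.08 against -0.19 to 0.31, the related Pkmyt1 2.83 against 1.94 to 2.20, and the phosphatase Cdc25a 2.21 against 1.70 to 2.45. Pbk, on 3 arrays, and Trip13, on 2, were not detected, and the probe of Pbk lay in the dim patch.

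Regulators that bind the promoter elements came next. Of 10 genes of the MuvB and DREAM complexes and of NF-Y 9 were detected, and the median difference was 0.003, with either sign between settings (-0.09 to 0.04). Lin37 read 2.14 on replicate 1 against 2.16 to 2.57, the DNA-binding MuvB subunit Lin54 1.24 against 1.09 to 1.31 and Rbbp4 1.53 against 1.52 to 1.64. The NF-Y subunit gene Nfyb missed the well-above-background flag on every array but passed limma's test against negative controls. Mybl2, singled out once its values were known, which encodes B-Myb, read 1.83 on replicate 1 against 0.20, 0.72 and 0.75. The NF-Y subunit gene Nfya, also named after its values were seen, went the other way, with -2.34 against -1.19, -1.29 and -1.66. Among detected members, those with a CHR match had a median difference of 0.73 (23 genes) and those without one 0.71 (9 genes). The values with and without a CCAAT box were 0.73 (25 genes) and 0.64 (7 genes). With both elements the median was 0.54 (19 genes), and without both together it was 0.78 (13 genes), so the order was the opposite one.

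Genes of earlier phases also read higher on replicate 1. DNA replication genes had 27 of 29 detected and a median difference of 0.77, against 0.65 for the mitotic members. Of the 27, 22 read highest on replicate 1, against 42.3% of all detected genes. Mcm2, a subunit of the replicative helicase, read 4.72 against 3.63 to 3.83. Mcm3 read 1.56 against 0.90 to 1.28 and Mcm4 2.38 against 0.75 to 1.74, and each had 1 probe in the dim patch; without the patch the median of the list was 0.73. Pola1 and Orc1 were not detected. Genes of G1/S control had 12 of 13 detected and a median of 0.39, with the D-type cyclins Ccnd1 at 5.12 against 4.15 to 4.36, Ccnd2 at 4.74 against 4.14 to 4.57 and Ccnd3, whose probe lay in the patch, at 3.46 against 2.19 to 2.64. Cdk6 was not detected. The 12 macrophage markers had a median of 0.14, which turned to -0.01 under normexp, and they went both ways. The differences on replicate 1 were 1.36 for Mrc1, 0.94 for Pparg, 0.87 for Fcer1g, 0.69 for Csf1r and 0.65 for Laptm5, and -0.84 for Cd14 and -0.36 for Cd36, named here after their values were seen. Their part in the result for the mitotic genes was not tested. The differences between these lists were not tested.

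**Figure D5:**
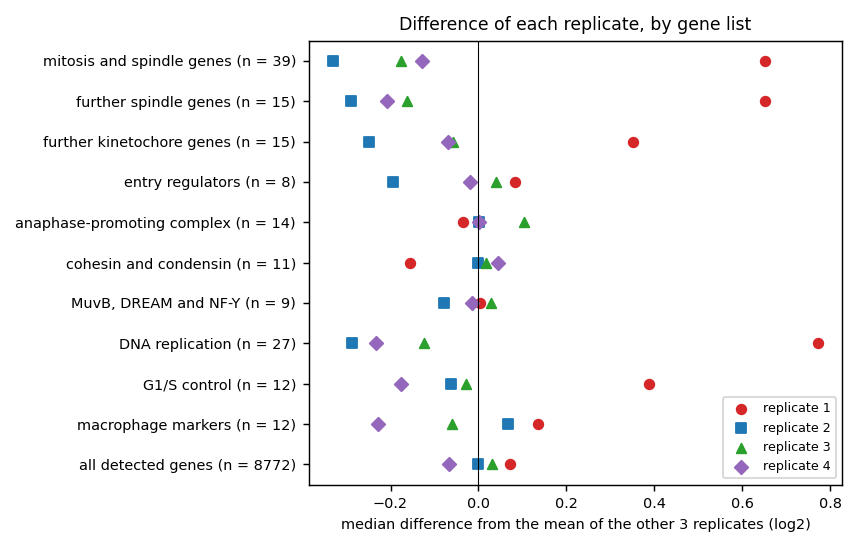
Median difference of each replicate from the mean of the other 3 (x axis, log2) for the mitosis and spindle genes, for related gene lists and for all detected genes (rows, with the number of detected genes). Replicate 1 lies at 0.65 for the mitosis and spindle genes and at 0.77 for DNA replication, and at -0.04 for the anaphase-promoting complex and 0.07 for all detected genes.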

How the data were processed

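Total RNA of 4 biological replicates was measured. The deposited files hold linear spot intensity values, not scaled between arrays, made with Agilent Feature Extraction 11.0.1.1, per the file headers and the submitters' processing notes. The deposited flags for outliers and for spots well above background were used as given.

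Control spots (4259 of 62976) and flagged outliers were left out, log2 signals of a probe's spots averaged, and each array's 75th percentile subtracted. No spot was saturated. Unversioned accessions were matched to RefSeq symbols of GRCr8 (17614 of 40539); 24290 of 45280 probes stayed unnamed. A gene's level is the mean of its detected probes. All arrays shared 1 slide and scan, so these could not be tested as batches. The members and lists were chosen with earlier results of these data known. All members may be named; of other lists the first 3 detected genes, the first 2 on no array, and all exceptions where there are 3 or fewer. Alternatives were left-out replicates, detection calls, probe rules, normexp (offset 50, on median signals, since mean signals were not used), quantile scaling, the percentile over detected probes, no dim filter, the 99th percentile of negative controls, and, chosen after seeing the data, no dim patch. The functions were tested on simulated data. Tools were R 4.3.3, limma 3.58.1, matplotlib 3.10.9 and the R package data.table (version 1.17.8).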

Additional observations from a re-analysis of the deposited data

Results flagged for a closer look

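For 7 of the 39 detected members, 1 of the 4 replicates lay far from the others by Dixon's criterion (gap to the nearest over the whole range, at the 95% critical value), and in each it was replicate 1, on the high side. Of all 8772 detected genes 8.41% had 1 replicate apart and 3.15% had replicate 1 apart on the high side. Chance marks about 1 in 20 such groups, and the genes share the same arrays. Cdk1 read 5.74 there, Ccnb2 3.29, Cdca3 5.01, Tpx2 1.34, Nusap1 3.25, Dlgap5 2.44 and Kif20a 4.90. The ratio ran from 0.841 in Dlgap5 to 0.954 in Cdca3. One of the 3 spots of Ccnb2 lay in the dim patch found on replicate 4. Replicate 1 also had the weakest overall signal of the arrays, and the part of that in these values was not tested.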

How the results depend on the processing

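The count of detected members was 41 under the positive-and-significant flag, 40 with at least 3 arrays, 37 with the first probe of a gene, 38 without the dim patch and between 39 and 40 over left-out replicates; the count above negative controls was 41 under every alternative run. Members highest on replicate 1 numbered 27 of 39 under normexp, against 39.5% of detected genes, and 28 of 37 with the first probe, against 42.3%. They were 30 of 39 under quantile scaling (38.7%) and with the percentile over detected probes (34.8%). Without the patch they were 30 of 38 (42.1%), and with no dim filter 32 of 41 (43.7%). Leaving out replicates gave a median SD between 0.14 and 0.42 and a median level between 1.47 and 1.81. It gave 31 to 33 members highest on replicate 1, where 45% to 47.6% of detected genes were. The median difference then ran from 0.62 to 0.70 on replicate 1, -0.44 to -0.12 on replicate 2, -0.29 to 0.04 on replicate 3 and -0.27 to 0.04 on replicate 4, where the positive ends, 0.042 and 0.04, come from leaving out replicate 1, which then is no part of the mean they are taken from. The median level of 1.68 became 1.29 under normexp, where the parts of the signal used, the background correction and the offset were not told apart. It became -1.40 with the percentile over detected probes, by construction, since that changes what is subtracted. With the percentile over detected probes, 39 of 39 member levels moved by more than their SD, and 20 of 39 did under normexp. No paired analysis was possible because there is 1 group. Dim probes near background, such as those of Hmmr and Cenpf, limit what can be said of low genes.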
